A study of Mus musculus with 8 samples.

Results

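The genes described here mark dendritic cells or set their lineage: Itgax, Zbtb46, Irf8, Batf3, Clec9a, Xcr1, Irf4, Cd209a and Siglech. They were taken by gene symbol from the raw count table, in which 9 of the 10 listed symbols had a row among 55450 genes; the symbol Ccr7l had none. RNA was sequenced from c-Kit bead-enriched cells of subcutaneous B16F10 tumours in wild-type C57BL6 mice aged 6 weeks that had received 150000 tumour cells, with tumours taken on day 17. B16F10 is a pigmented mouse melanoma line. The tumour cells were either Scramble B16F10, the control (4 libraries, numbered 2 to 5), or PERK KO B16F10, which lacks a kinase of the endoplasmic reticulum stress response (4 libraries, numbered 1 to 4). The knockout was in the injected cells and the hosts of both groups were wild-type, so dendritic cells of the host carried an intact PERK gene in either group. The labels name a tumour for each library and do not say whether each came from a mouse of its own, or whether the knockout line was 1 clone. The p-values below measure the spread between these tumours.

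Depth was 44950033 to 56697163 counts in the scramble libraries and 29006949 to 47530393 counts in the PERK KO libraries. Levels are given in CPM, the counts scaled to a common library size with TMM factors, and 3 counts, the limit that a count of 0 allows, corresponded to 0.0515 to 0.100 CPM. Eif2ak3, which encodes PERK, had 48.3 to 59.2 CPM in scramble and 7.73 to 22.7 CPM in PERK KO, so the libraries matched their labels. Kit had 170 to 223 CPM in scramble and 139 to 211 CPM in PERK KO. The labelled cell type is c-Kit+ precursors. The precursor marker Cd34 had 1.56 to 11.7 and 7.34 to 18.6 CPM, and Mpo, a granule enzyme of myeloid precursors, had no count in any of the 8 libraries. The 12 melanocyte lineage markers took 24847 to 25435 CPM in scramble and 16463 to 20055 CPM in PERK KO. PERK KO library 4 and scramble library 4 stood apart: 19 pan-leukocyte genes summed to 1320 CPM in the first, against 372 to 528 CPM in the other PERK KO libraries, and to 151 CPM in the second, against 195 to 212 CPM in the other scramble libraries. Results are given below with and without these libraries where they moved.

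Dendritic cells take up antigen and present it to T cells, and they fall into conventional types 1 and 2 (cDC1 and cDC2) and plasmacytoid cells (pDC). The transcription factors IRF8 and BATF3 are needed for cDC1, which carry the dead-cell receptor CLEC9A and the chemokine receptor XCR1 and are known in tumours for cross-presenting antigen to cytotoxic T cells. IRF4 acts in cDC2, CD209a marks a part of cDC2 and of monocyte-derived cells, and Siglec-H marks mouse pDC. ITGAX (the integrin CD11c) and the zinc-finger factor ZBTB46 are shared by the conventional types. Several of these genes are also used elsewhere: Irf8 in monocytes and B cells, Irf4 in lymphocytes and melanocytes, Itgax in macrophages, and Zbtb46 in endothelium.

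The promoters of the 4 genes with the largest differences in these libraries, and of Cd209a, were read to set side by side the sequences just upstream of the genes described. Each is the 250 bases before the RefSeq start on the gene's own strand, in GRCm38.p6, the assembly of mm10. Capitals mark the matches to any of 4 short motifs of factors that act in dendritic cells, searched on both strands: the ETS-IRF composite core GGAANNGAA, bound by PU.1 with IRF4 or IRF8; the IRF repeat core GAAANNGAA; the AP-1 site TGANTCA, bound by BATF3 with a JUN partner; and the PU.1-type ETS site AGGAAGT.
Itgax (chr7:128129300-128129549, plus strand): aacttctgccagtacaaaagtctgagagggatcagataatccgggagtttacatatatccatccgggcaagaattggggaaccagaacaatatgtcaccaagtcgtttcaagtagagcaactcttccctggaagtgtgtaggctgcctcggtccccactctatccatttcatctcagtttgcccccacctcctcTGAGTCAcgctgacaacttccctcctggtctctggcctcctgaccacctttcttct
Irf8 (chr8:120736108-120736357, plus strand): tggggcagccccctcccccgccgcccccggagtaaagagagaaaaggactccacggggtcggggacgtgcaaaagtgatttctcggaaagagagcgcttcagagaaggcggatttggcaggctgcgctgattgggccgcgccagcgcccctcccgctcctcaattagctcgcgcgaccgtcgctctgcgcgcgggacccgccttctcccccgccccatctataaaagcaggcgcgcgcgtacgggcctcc
Clec9a (chr6:129408612-129408861, plus strand): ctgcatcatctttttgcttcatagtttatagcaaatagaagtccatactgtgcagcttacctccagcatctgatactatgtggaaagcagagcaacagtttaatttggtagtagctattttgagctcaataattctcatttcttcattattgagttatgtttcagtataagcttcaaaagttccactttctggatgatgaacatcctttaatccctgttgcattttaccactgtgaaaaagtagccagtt
Xcr1 (chr9:123862030-123862279, minus strand): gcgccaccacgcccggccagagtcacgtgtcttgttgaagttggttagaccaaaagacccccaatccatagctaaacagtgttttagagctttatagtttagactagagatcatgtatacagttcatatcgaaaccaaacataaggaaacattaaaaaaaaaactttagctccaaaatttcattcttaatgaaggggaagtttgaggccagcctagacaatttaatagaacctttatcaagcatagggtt
Cd209a (chr8:3748985-3749234, minus strand): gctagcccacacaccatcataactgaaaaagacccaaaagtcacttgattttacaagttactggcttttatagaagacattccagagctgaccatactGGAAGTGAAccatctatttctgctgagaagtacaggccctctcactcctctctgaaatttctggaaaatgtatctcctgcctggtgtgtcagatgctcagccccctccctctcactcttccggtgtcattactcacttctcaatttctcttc
The Itgax promoter held 1 AP-1 match, TGAGTCA, beginning 56 bases before the start (position -56). The Cd209a promoter held 1 ETS-IRF core, GGAAGTGAA, beginning at position -152. None of the 4 motifs was found in the printed windows of Irf8, Clec9a and Xcr1, which says only that these letters are not in these 250 bases. Of the other members, Zbtb46 had an AP-1 match, TGACTCA, at position -61 of its RefSeq window (chr2:181424389-181424638, minus strand). That window lies inside the annotated Zbtb46 gene, which begins at 181459426 on this strand, so it is not upstream of the whole gene. RefSeq promoters were found for all 9 genes with a row, 2 of them for Irf8. Among 32851 mouse promoters of the same length, 6.99% held the ETS-IRF core, 7.13% the IRF repeat, 6.75% the AP-1 site and 7.69% the ETS site. A match is a description of the sequence and not of a bound site.

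The groups were compared to ask how dendritic cell transcripts among the c-Kit-enriched cells depend on PERK in the tumour. Itgax, Irf8, Batf3, Clec9a and Xcr1 were higher in PERK KO tumours, with fitted log2 differences from 1.61 for Batf3 to 5.14 for Clec9a, and none was lower. The 4 members of cDC1 rose, whereas Irf4, Zbtb46 and Cd209a did not pass the test and Siglech was too low to test. Of 8 members tested, 5 rose at an edgeR adjusted p under 0.05, against 7.66% of all 16662 genes tested. None fell, against 6.13% of all genes, and at an unadjusted p under 0.05 the edgeR counts were 7 higher and 0 lower. DESeq2 called 4 higher and 0 lower, and limma-voom 3 higher and 0 lower. Every PERK KO library was above every scramble library at the same 5 genes, a separation that 10.2% of all genes tested showed. Without PERK KO library 4 and scramble library 4, 4 of 8 rose. The 8 tested members had a median log2 difference of 3.24, beside -0.02 over all genes tested. Passing the filter on low counts did not need both groups: Clec9a and Cd209a passed its minimum of 0.216 CPM in only 2 of the 4 scramble libraries each, and such genes can enter the test through the group in which they are high. In bulk RNA of an enriched fraction, more cells of a type and more RNA per cell cannot be told apart.

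**Figure D1:**
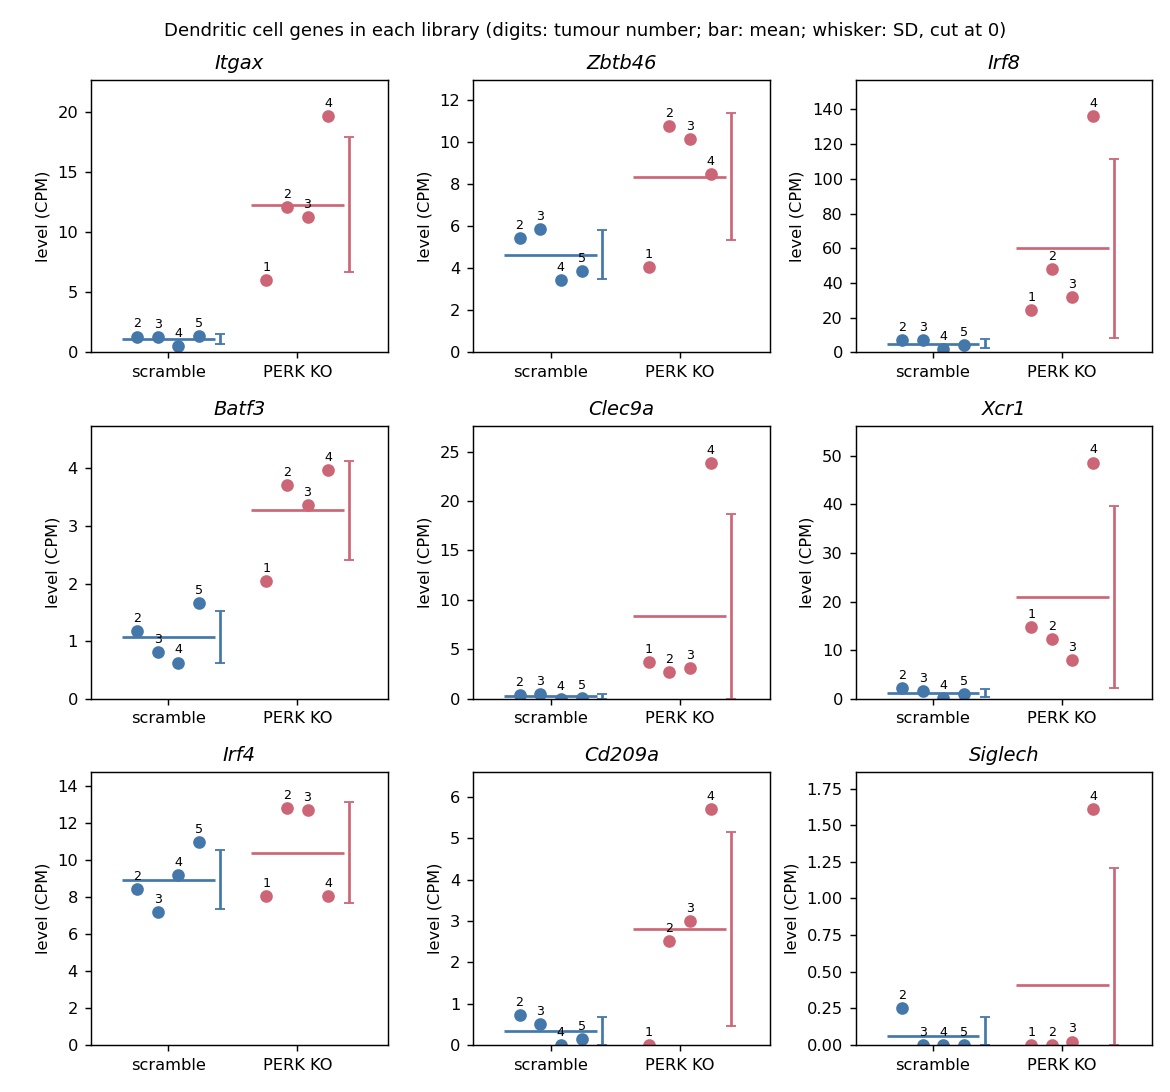
Level of each of the 9 genes in CPM (linear axis from 0) in the 4 scramble and 4 PERK KO libraries, with the library number beside each point, a bar for the mean and a whisker for the SD (n = 4, cut at 0). Itgax, Irf8, Batf3, Clec9a and Xcr1 show no overlap between the groups, and PERK KO library 4 is the highest point at 7 of the 9 genes.

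Itgax encodes the integrin alpha chain CD11c, the most used surface marker of dendritic cells. Itgax (ENSMUSG00000030789.9, mm10 chromosome 7, 128129547 to 128150657, plus strand) had 1.32, 1.25, 0.542 and 1.37 CPM in scramble libraries 2 to 5 and 6.03, 12.1, 11.3 and 19.6 CPM in PERK KO libraries 1 to 4. The groups did not overlap: scramble library 4 was the lowest and PERK KO library 4 the highest. Group means were 1.12 ± 0.390 CPM for scramble against 12.2 ± 5.60 CPM for PERK KO (SD, n = 4 each). The log2 difference was 3.44 (SE 0.42, edgeR adjusted p = 0.000764). It was 3.12 without PERK KO library 4 and 2.89 without both libraries that stood apart (edgeR adjusted p = 0.00112 and 0.00161). The call held under all 18 alternatives run.

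Zbtb46 encodes a zinc-finger repressor whose expression among immune cells is largely limited to conventional dendritic cells and their committed precursors. Zbtb46 (ENSMUSG00000027583.13, chromosome 2, 181387762 to 181459426, minus strand) had 5.43, 5.86, 3.44 and 3.87 CPM in scramble libraries 2 to 5 and 4.05, 10.8, 10.1 and 8.47 CPM in PERK KO libraries 1 to 4. PERK KO library 1 lay among the scramble libraries, and the other 3 lay above them. The log2 difference of 0.85 (SE 0.33) missed the threshold (edgeR adjusted p = 0.118), and without PERK KO library 1 it was 1.08 and passed (edgeR adjusted p = 0.0225). The lowest library of each group in Zbtb46 was also the lowest of its group in endothelial genes. The 10 endothelial markers summed to 207, 188, 41.5 and 214 CPM in scramble libraries 2 to 5 and to 81.8, 221, 305 and 194 CPM in PERK KO libraries 1 to 4. The part of endothelial cells in the Zbtb46 level was not tested.

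Among the cDC1 genes, the factors Irf8 and Batf3 and the surface receptors Clec9a and Xcr1 all rose, by unequal amounts. Irf8 encodes an interferon regulatory factor needed for cDC1 and for monocyte progenitors. Irf8 (ENSMUSG00000041515.10, chromosome 8, 120736358 to 120756694, plus strand) had 7.08, 7.13, 1.86 and 4.53 CPM in scramble libraries 2 to 5 and 24.2, 48.0, 31.8 and 136 CPM in PERK KO libraries 1 to 4. All PERK KO libraries were above all scramble libraries, and PERK KO library 4 held 56.7% of the summed CPM of its group. The scramble mean was 5.15 CPM, and that of PERK KO 60.0 ± 51.7 CPM (SD, n = 4). The log2 difference was 3.54 (SE 0.68, edgeR adjusted p = 0.0148), and 2.74 without PERK KO library 4 (edgeR adjusted p = 0.004). The call was narrowly lost without scramble library 3 or 5 (edgeR adjusted p = 0.0501 and 0.0511), and it was lost with a replicate block (edgeR adjusted p = 0.196).

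Batf3 encodes an AP-1 family factor that keeps up Irf8 expression in committed cDC1. Batf3 (ENSMUSG00000026630.9, chromosome 1, 191097847 to 191108945, plus strand) had 1.18, 0.807, 0.628 and 1.66 CPM in scramble libraries 2 to 5 and 2.04, 3.71, 3.37 and 3.98 CPM in PERK KO libraries 1 to 4. The groups did not overlap, and the gap between them was narrow, from scramble library 5 to PERK KO library 1. Group means were 1.07 ± 0.458 CPM for scramble against 3.27 ± 0.858 CPM for PERK KO (SD, n = 4 each). The log2 difference was 1.61 (SE 0.49, edgeR adjusted p = 0.0484). The call was lost in 11 of 18 alternatives, with a highest adjusted p of 0.182 without PERK KO library 4 and scramble library 4. Of the single libraries, only PERK KO library 1 could be left out with the call standing (edgeR adjusted p = 0.0344). Without the others the edgeR adjusted p was 0.108, 0.145, 0.128 and 0.0594 for scramble libraries 2 to 5 and 0.0756, 0.0684 and 0.0867 for PERK KO libraries 2 to 4.

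Clec9a encodes a C-type lectin through which cDC1 recognise actin exposed on dead cells. Clec9a (ENSMUSG00000046080.17, chromosome 6, 129408862 to 129424763, plus strand) had 0.344, 0.515, 0 and 0.0580 CPM in scramble libraries 2 to 5, from 19, 30, 0 and 3 counts. In PERK KO libraries 1 to 4 it had 3.75, 2.71, 3.07 and 23.9 CPM, from 112, 111, 132 and 919 counts. The gene was near the counting floor in 2 scramble libraries and clearly present in every PERK KO library, of which library 4 held 71.5% of the summed CPM. The log2 difference was 5.14 (SE 1.17, edgeR adjusted p = 0.0199), and its size was loosely set by the low scramble counts: it was 3.76 without PERK KO library 4 and 5.89 without scramble library 3 (edgeR adjusted p = 0.0371 and 0.045). The call was lost without scramble library 2 or 5 (edgeR adjusted p = 0.064 and 0.0595) and under limma-voom (adjusted p = 0.132). It was also lost with no filter on low counts and with a replicate block (edgeR adjusted p = 0.0728 and 0.267). Clec9a shares 184 exon bases, 5.59% of its exons, with Clec1b on the same strand. Clec1b itself had 5 counts over the scramble libraries and 42 over the PERK KO libraries.

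Xcr1 encodes the receptor for the chemokine XCL1, and in mice its expression is a defining trait of cDC1. Xcr1 (ENSMUSG00000060509.4, chromosome 9, 123852315 to 123862029, minus strand) had 2.12, 1.60, 0.217 and 0.948 CPM in scramble libraries 2 to 5 and 14.7, 12.3, 7.89 and 48.6 CPM in PERK KO libraries 1 to 4. The groups did not overlap, with scramble library 4 the lowest and PERK KO library 4 the highest. Group means were 1.22 ± 0.822 CPM for scramble against 20.9 ± 18.7 CPM for PERK KO (SD, n = 4 each). The log2 difference was 4.08 (SE 0.79, edgeR adjusted p = 0.0119), and 3.24 without PERK KO library 4 (edgeR adjusted p = 0.00533). Without scramble library 3 the call was lost (edgeR adjusted p = 0.0513), as it was under limma-voom (adjusted p = 0.0578) and with a replicate block (edgeR adjusted p = 0.251).

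The genes placed with cDC2 did not pass the test. Irf4 encodes the interferon regulatory factor of cDC2 and of activated lymphocytes, which also acts in pigment cells. Irf4 (ENSMUSG00000021356.10, chromosome 13, 30749226 to 30766976, plus strand) had 8.42, 7.19, 9.18 and 11.0 CPM in scramble libraries 2 to 5 and 8.04, 12.8, 12.7 and 8.03 CPM in PERK KO libraries 1 to 4. The groups overlapped: PERK KO libraries 1 and 4 lay within the scramble range, and PERK KO libraries 2 and 3 lay above it. PERK KO library 4, the highest library for most of the other genes, was among the lowest for Irf4. The log2 difference was 0.22 (SE 0.23, edgeR adjusted p = 0.636) and ran from 0.10 to 0.41 over the alternatives. Melanocyte lineage genes were also abundant in every library and fell in PERK KO at 8 of 12 markers, and the part of melanoma cells in the Irf4 level was not tested.

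Cd209a encodes a mouse homologue of the lectin DC-SIGN. Cd209a (ENSMUSG00000031494.7, chromosome 8, 3743397 to 3748984, minus strand) had 40, 29, 0 and 7 counts in scramble libraries 2 to 5, which are 0.724, 0.498, 0 and 0.135 CPM. In PERK KO libraries 1 to 4 it had 0, 103, 129 and 220 counts, which are 0, 2.51, 3.00 and 5.72 CPM. PERK KO library 1 had no read of Cd209a while it had 438 of Xcr1, and the other 3 PERK KO libraries were above all scramble libraries. The log2 difference of 3.03 (SE 1.37) missed the threshold (edgeR adjusted p = 0.182). It also missed it without PERK KO library 1, at 3.46, without PERK KO library 4, at 2.42, and without scramble library 2, at 3.69 (edgeR adjusted p = 0.054, 0.351 and 0.213).

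Siglech, the surface lectin of pDC, was at or near the counting floor. Siglech (ENSMUSG00000051504.18, chromosome 7, 55768178 to 55778925, plus strand) had 14 counts in scramble library 2 and 0 in scramble libraries 3 to 5, and 0, 0, 1 and 62 counts in PERK KO libraries 1 to 4. A single library thus held 98.6% of the summed CPM of the PERK KO group, at 1.61 CPM. Siglech did not pass the filter on low counts, and in a fit without that filter its log2 difference was 2.62 (edgeR adjusted p = 0.519). A difference in Siglech was not detectable at this depth.

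The order of the levels differed between the groups when counts were divided by exon length. In scramble, the mean level per kilobase of exon was highest for Irf4 at 1.82 ± 0.322 CPM per kb (SD, n = 4), followed by Irf8 at 0.730 ± 0.355, Batf3 at 0.669 ± 0.287 and Zbtb46 at 0.547 ± 0.138. Below these came Xcr1 at 0.274, Itgax at 0.234, Cd209a at 0.214, Clec9a at 0.0696 and Siglech at 0.0187 CPM per kb. In PERK KO, Irf8 came first at 8.51 ± 7.32 CPM per kb, followed by Xcr1 at 4.69 ± 4.20, Itgax at 2.55 ± 1.17 and Clec9a at 2.54 ± 3.15. Irf4 at 2.12 ± 0.556, Batf3 at 2.05 ± 0.537, Cd209a at 1.77, Zbtb46 at 0.982 and Siglech at 0.121 CPM per kb followed. The gap between neighbours was larger than the SD of either gene for Irf4 and Irf8 and for Zbtb46 and Xcr1 in scramble, and for Zbtb46 and Siglech in PERK KO. The other neighbours did not differ beyond their spread.

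Each subset was also described by a marker list, chosen like the members with earlier results of these data known. The shared, cDC1, cDC2 and pDC lists include the members of that subset. Of 12 genes shared by conventional dendritic cells, 10 rose and 0 fell, with a median log2 difference of 3.21. Of the 10 that were not members, 9 rose. Flt3, the receptor for the main dendritic cell growth factor, went from 2.03 ± 0.559 to 23.4 ± 19.2 CPM (SD, n = 4 and 4), a log2 difference of 3.52 (edgeR adjusted p = 0.0033). The dipeptidyl peptidase Dpp4 rose by 3.97 (edgeR adjusted p = 0.00133). The myeloid and dendritic cell factor Spi1 (PU.1) rose by 2.98 and the MHC class II chain H2-Ab1 by 3.92 (edgeR adjusted p = 0.00886 and 0.0125). Relb, a factor of the non-canonical NF-kB pathway, went from 5.09 to 6.81 CPM and missed the threshold (edgeR adjusted p = 0.604). Leaving out PERK KO library 4 gave 2.78 for Flt3, 3.18 for Dpp4, 2.30 for Spi1 and 2.96 for H2-Ab1, all past the threshold. DESeq2 called 10 higher and limma-voom 9. The count of 10 became 5 without scramble library 3 and 6 without scramble library 5. Over all 18 alternatives it ran from 1 to 10.

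Of 15 cDC1 genes, 12 rose and 0 fell, with a median of 3.43, and 8 of these 12 were not among the members. Wdfy4, needed by cDC1 for cross-presentation, went from 7.44 ± 3.44 to 136 ± 115 CPM (SD, n = 4 and 4), a log2 difference of 4.19 (edgeR adjusted p = 0.0097). Itgae, the integrin CD103 of tissue cDC1, rose by 3.60, Gcsam by 3.43 and Snx22, a sorting nexin, by 3.32 (edgeR adjusted p = 0.00338, 0.00477 and 0.00277). Cadm1, an adhesion molecule of cDC1 that many other cells also use, had 486 and 519 CPM, and the double-stranded RNA receptor Tlr3 had 37.6 and 45.5 CPM. Neither passed (edgeR adjusted p = 0.643 and 0.314). Without PERK KO library 4 the log2 difference was 3.41 for Wdfy4, 2.74 for Itgae and 2.80 for Gcsam, all past the threshold. DESeq2 called 11 of the 15 higher and limma-voom 9. The count of 12 became 7 without scramble library 2 and 6 without scramble library 3, and ran from 0 to 13 over all 18 alternatives. With a replicate block the calls of Wdfy4, Itgae, Gcsam and Snx22 were lost (edgeR adjusted p = 0.139, 0.0746, 0.0579 and 0.0653).

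The cDC2 list was mixed. Of 10 tested genes of 12 listed, 4 rose and 1 fell, with a median of 2.66. Of the 8 tested that were not members, 4 rose and 1 fell. DESeq2 called 6 of the 10 higher and limma-voom 2, and the count of 4 ran from 0 to 6 over the 18 alternatives. The lectins Clec12a, Clec10a and Clec4a2 rose by 3.97, 3.02 and 3.15, and the inhibitory receptor Cd300a by 2.96 (edgeR adjusted p = 0.0133, 0.0151, 0.0233 and 0.0168). These receptors are also found on monocytes and macrophages. Sirpa, a receptor of cDC2 and macrophages, fell by 0.31 on the log2 scale, from 312 ± 7.27 to 252 ± 26.7 CPM (SD, n = 4 and 4; edgeR adjusted p = 0.0365). It was named after its values were seen, and its call was lost on leaving out any library but PERK KO library 2 (edgeR adjusted p from 0.054 to 0.107) and with RLE or upper-quartile factors in place of TMM (edgeR adjusted p = 0.0668 and 0.0923). Klf4 and Notch2, regulators of cDC2 subsets, had log2 differences of 0.51 and 0.62 and did not pass (edgeR adjusted p = 0.602 and 0.0648). Without PERK KO library 1, Notch2 passed (log2 difference 0.75, edgeR adjusted p = 0.0376). The calls of Clec10a, Clec4a2 and Cd300a each ended without scramble library 3 (edgeR adjusted p = 0.0536, 0.0511 and 0.0588), which left 1 gene higher, and 2 were left without scramble library 5. Without PERK KO library 4, Clec12a was at 3.23 (edgeR adjusted p = 0.0457). Without scramble library 5, Cd300a was at 3.76, and without scramble library 2, Clec10a was at 3.65, both past the threshold. Clec4a2 also ended without scramble library 2 or PERK KO library 2 (edgeR adjusted p = 0.0708 and 0.0764).

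Of 14 pDC genes listed, 9 could be tested and 4 rose, with a median of 2.28. DESeq2 called 6 higher and limma-voom 4, and the 18 alternatives gave 1 to 6, against 4 in the main fit. These 4 were the nucleic acid receptors Tlr9 and Tlr7, at 3.84 and 2.92, the factor Runx2 at 2.56, and Ly6d, a marker of lymphoid and pDC progenitors, at 5.20 (edgeR adjusted p = 0.00264, 0.00341, 0.00277 and 0.00357). Each of them is also expressed outside pDC, Ly6d in some epithelia. Tlr9 was at 3.19 without PERK KO library 4 (edgeR adjusted p = 0.0011). Tcf4, the factor that sets pDC identity and is also used in many other cells, had means of 88.1 ± 11.9 CPM for scramble against 76.8 ± 11.6 CPM for PERK KO (SD, n = 4 each). Neither it nor Bst2, at 147 and 187 CPM, passed (edgeR adjusted p = 0.376 and 0.208). The more restricted markers Siglech, Ccr9, Cox6a2, Klk1 and Upb1 were too low to be tested, with group means of at most 0.409 CPM.

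Genes of mature, migratory dendritic cells were higher in PERK KO at 9 of 12 tested of 15 listed, with a median of 2.44. The actin-bundling protein Fscn1 went from 149 ± 16.6 to 343 ± 44.8 CPM (SD, n = 4 and 4), a log2 difference of 1.20 (edgeR adjusted p = 0.000147). The chemokine Ccl22 rose by 3.96, the costimulatory ligand Cd86 by 3.40 and the calcium channel subunit Cacnb3 by 1.00 (edgeR adjusted p = 0.00541, 0.0139 and 0.00261). Fscn1 and Cacnb3 had scramble means of 149 and 16.8 CPM, beside 1.57 CPM for Ccl22. The part of other cells in the Fscn1 and Cacnb3 levels was not tested. Socs2 and Cd80 had log2 differences of 0.94 and 1.85 and did not pass (edgeR adjusted p = 0.093 and 0.0804). Ccr7, the chemokine receptor that guides mature cells to lymph nodes, was added to the named genes after its values were seen. It had 2.84, 2.64, 0.217 and 2.44 CPM in scramble libraries 2 to 5 and 11.0, 21.4, 21.4 and 79.8 CPM in PERK KO libraries 1 to 4, without overlap, a log2 difference of 4.03 (edgeR adjusted p = 0.0223). Its call was lost without scramble library 2, 3 or 5 (edgeR adjusted p = 0.0602, 0.0732 and 0.0636), and without PERK KO library 4 the difference was 3.13 (edgeR adjusted p = 0.0138). Without PERK KO library 4, Ccl22 was at 3.21 and Cd86 at 2.54, both past the threshold, and Cd86 ended without scramble library 5 (edgeR adjusted p = 0.0525). Socs2 passed without scramble library 5 (1.28, edgeR adjusted p = 0.0383) and Cd80 without PERK KO library 1 (2.21, edgeR adjusted p = 0.0242). Without PERK KO library 4, Cd80 was at 0.96 (edgeR adjusted p = 0.324). limma-voom called 5 of these genes higher and DESeq2 10. The count of 9 became 5 without scramble library 2 and 4 without scramble library 3, and ran from 3 to 10 over all 18 alternatives.

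Of 14 growth factors, attractants and receptors of dendritic cells, 13 were tested, 9 rose and 0 fell, with a median of 2.32. The chemokine Ccl5 rose by 2.88, and the monocyte chemokine receptor Ccr2 by 3.05 (edgeR adjusted p = 0.00113 and 0.011). Xcl1, the ligand of XCR1, which was named after its values were seen, had group means of 0.0738 and 1.36 CPM (log2 difference 4.17, edgeR adjusted p = 0.0484). The Xcl1 call was lost on leaving out any library but PERK KO library 3 (edgeR adjusted p from 0.0568 to 0.137), and without PERK KO library 4 the difference was 3.58. Flt3l, the ligand of FLT3, named in the same way, had means of 0.739 and 1.77 CPM and did not pass (edgeR adjusted p = 0.297). Cxcl10, at 81.6 and 88.7 CPM, and Csf1, at 15.8 and 21.3 CPM, did not pass either (edgeR adjusted p = 0.749 and 0.147). DESeq2 called 9 higher and limma-voom 7. The count of 9 became 5 without scramble library 2 and 4 without scramble library 3, and ran from 1 to 9 over all 18 alternatives.

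**Figure D2:**
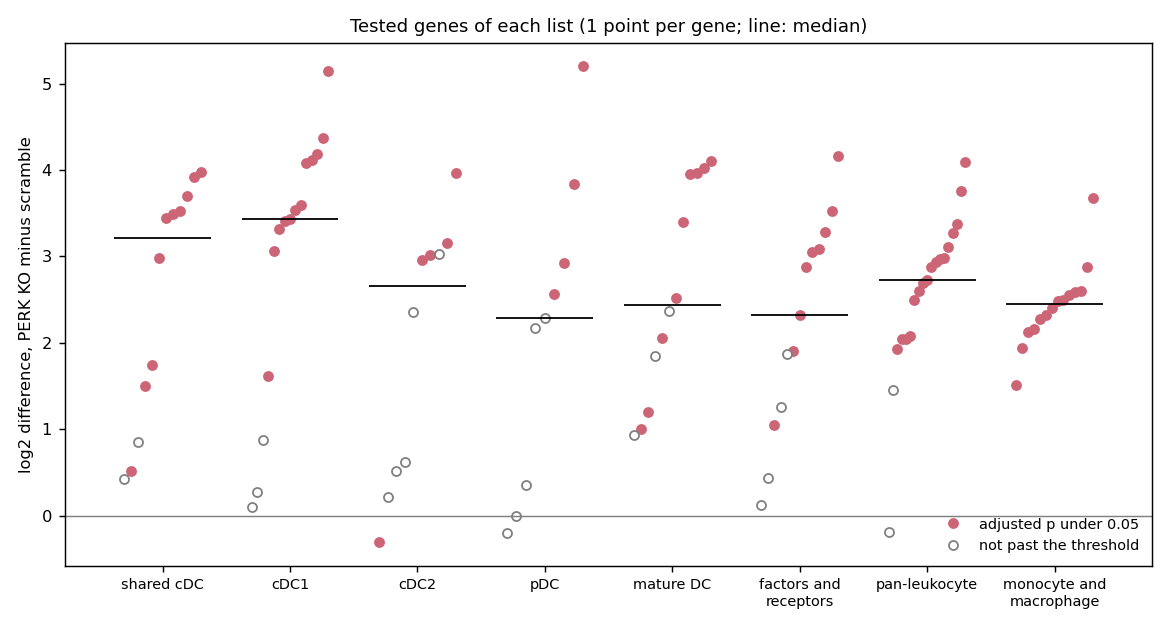
Fitted log2 difference (PERK KO minus scramble, linear axis) of each tested gene in 8 marker lists, as filled points at an edgeR adjusted p under 0.05 and open points otherwise, with a line at the list's median. Lists that hold members include them. The medians run from 2.28 for the pDC list to 3.43 for the cDC1 list, with 2.73 for pan-leukocyte and 2.45 for monocyte and macrophage genes.

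Markers of other cells moved in the same libraries. All 14 monocyte and macrophage genes rose, with a median of 2.45, and their sum was 65.6 to 163 CPM in scramble and 337 to 1030 CPM in PERK KO. All 8 mast cell genes rose, with a median of 3.72 and sums of 18.6 to 159 and 689 to 3066 CPM. Of 19 pan-leukocyte genes, 17 rose, with a median of 2.73. Simple epithelial genes rose at 9 of 9, from sums of 5.19 to 7.53 to sums of 93.7 to 238 CPM. Of the lymphoid lists, 1 of 7 tested B cell genes rose, which was Ighm at means of 5.31 and 80.9 CPM (log2 difference 3.92). Ighm was at 3.24 without PERK KO library 4 and 4.73 without scramble library 2, and its call was lost without scramble library 3 or 5 (edgeR adjusted p = 0.0673 and 0.0521). In the T cell list 0 of 4 tested genes were called higher (1 at an unadjusted p under 0.05 in edgeR; 1 with DESeq2 and 0 with limma-voom). In the NK cell list it was 0 of 1 (0 at an unadjusted p, and 0 with either other tool). The T cell list had a median of 3.06, with sums of 0.195 to 2.68 CPM in scramble and 3.75 to 29.2 CPM in PERK KO. PERK KO library 4 was the highest, and the other PERK KO libraries had 3.75 to 4.85 CPM. The B cell list, Ighm included, had a median of 2.06 and sums of 2.95 to 15.5 and 32.9 to 197 CPM. The sums of neither list overlapped between the groups, whereas those of the NK cell list did. Endothelial genes were called at 0 of 10 (1 at an unadjusted p in edgeR; 0 with DESeq2 and 0 with limma-voom), and melanocyte genes fell at 8 of 12, with a median of -0.47. The part of monocytes, macrophages and mast cells in the levels of Itgax, Irf8 and the other shared genes was not tested.

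To ask whether the dendritic cell genes differed beyond leukocyte transcripts in general, the fit was repeated with the summed counts of the 19 pan-leukocyte genes as library sizes. On this scale the median log2 difference of all genes tested was -1.52, and 1.77% of genes were called higher and 65.4% lower. Clec9a, Xcr1, Itgax and Irf8 were called higher, with log2 differences of 3.11 (SE 0.92), 2.26 (SE 0.55), 1.77 (SE 0.60) and 1.65 (SE 0.45) and edgeR adjusted p of 0.00173, 0.000331, 0.00606 and 0.000891. Irf4 was called lower, at -1.26 (SE 0.47, edgeR adjusted p = 0.0128). Batf3 at 0.05, Zbtb46 at -0.70 and Cd209a at 1.23 did not pass (edgeR adjusted p = 0.959, 0.218 and 0.38). Without scramble library 3, Clec9a was at 3.91 (edgeR adjusted p = 0.00321), and without scramble library 2, Cd209a was at 1.85 (edgeR adjusted p = 0.277). The 4 higher calls depended on the scaling genes. Arhgap30, a GTPase-activating protein, had means of 114 ± 3.72 CPM for scramble against 100.4 ± 16.8 CPM for PERK KO (SD, n = 4 each), and took 54.7 to 77.1% of the pan-leukocyte sum in scramble but 9.47 to 24.7% in PERK KO. Without it, an alternative chosen after seeing the data, the sum was 34.5 to 93.6 CPM in scramble and 280 to 1195 CPM in PERK KO. Clec9a was then at 2.14, Xcr1 at 1.28, Itgax at 0.69 and Irf8 at 0.59, and none passed (edgeR adjusted p = 0.105, 0.112, 0.431 and 0.377). Under that scaling 0.348% of all genes were called higher and 77.4% lower, and the members had 0 higher and 2 lower, also at an unadjusted p under 0.05. The 2 lower genes were Irf4 at -2.49 and Zbtb46 at -1.87 (edgeR adjusted p = 0.000242 and 0.00933). Both fell less than the median of all genes tested, which was -2.74 under that scaling. DESeq2 and limma-voom were not run on this scale.

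**Figure D3:**
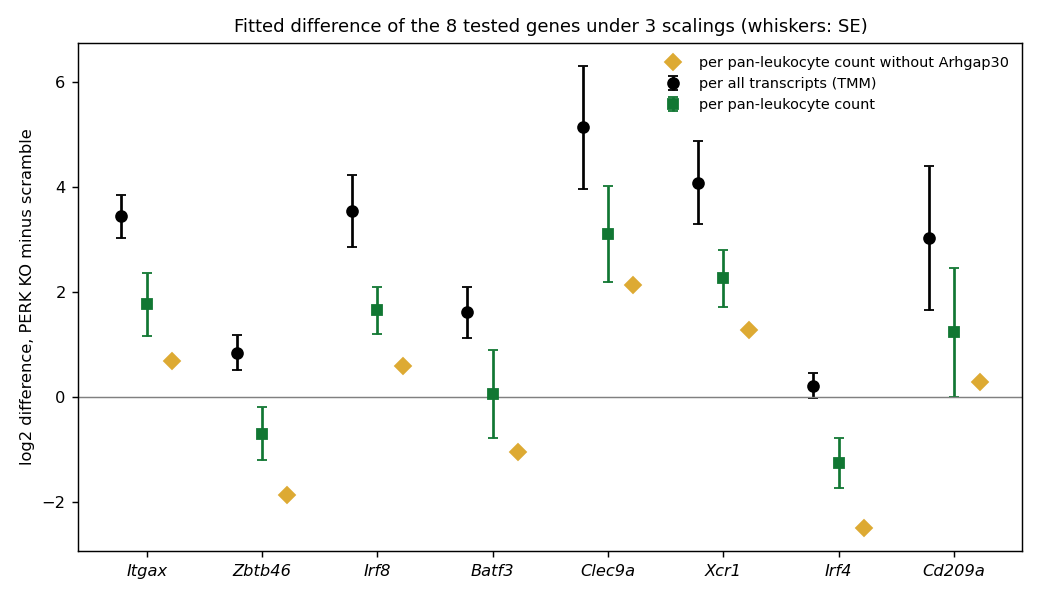
Fitted log2 difference (PERK KO minus scramble, linear axis) of the 8 tested genes per all transcripts (circles), per pan-leukocyte count (squares, both with SE whiskers) and per pan-leukocyte count without Arhgap30 (diamonds, no error drawn). Clec9a is highest under each scaling, at 5.14, 3.11 and 2.14, and Irf4 is lowest, at 0.22, -1.26 and -2.49.

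Ratios between 2 genes of the same library do not depend on the scaling, and 7 pairs were compared by exact permutation of the group labels (70 assignments, two-sided), which cannot go below p = 0.0286. Irf8 over Irf4, the factors of cDC1 and cDC2, had log2 ratios of -0.25, -0.01, -2.27 and -1.27 in scramble libraries 2 to 5 and 1.58, 1.90, 1.32 and 4.08 in PERK KO libraries 1 to 4. The ratio, which is not divided by gene length, was below 0 in all scramble libraries and above 0 in all PERK KO libraries. The mean difference was 3.17 (exact permutation p = 0.0286, adjusted over the 7 pairs 0.05, not under the threshold). Batf3 over Irf4 went from -3.09 ± 0.491 to -1.66 ± 0.442 (SD, n = 4 and 4), a difference of 1.43 with the same exact permutation p of 0.0286 and adjusted value of 0.05. Itgax over Zbtb46 went from -2.06 ± 0.461 to 0.52 ± 0.496 (SD, n = 4 and 4), a difference of 2.58 with the same exact permutation p and adjusted value. In all 3 pairs the 4 PERK KO libraries were above the 4 scramble libraries.

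The pairs that set cDC1 against cDC2 and pDC surface genes rested on libraries with 0 to 3 counts and depend on the prior count of 2 added before the logarithm. Clec9a over Cd209a differed by 2.59 (exact permutation p = 0.0571, adjusted 0.08) and Xcr1 over Cd209a by 1.75 (exact permutation p = 0.371, adjusted 0.371). PERK KO library 1, without a Cd209a read, had log2 ratios of 6.43 and 8.39 in these pairs. The other PERK KO libraries had 0.03 to 2.05 and 1.39 to 3.08, so library 1 carried much of both differences. Siglech over Clec9a was lower in PERK KO by -4.13 (exact permutation p = 0.0286, adjusted 0.05), and Siglech over Cd209a differed by -1.53 (exact permutation p = 0.371, adjusted 0.371). No adjusted value of the 7 pairs was under 0.05.

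**Figure D4:**
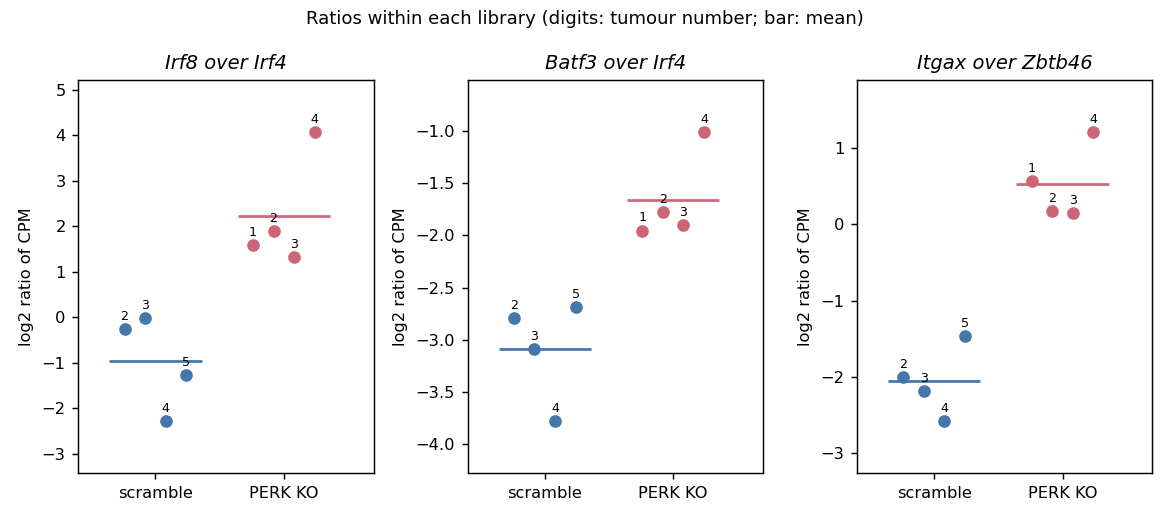
Log2 ratio of the CPM of 2 genes (prior count 2, linear axis of log2 values) in each of the 4 scramble and 4 PERK KO libraries, with library numbers and a bar for the mean. The PERK KO libraries lie above the scramble libraries for Irf8 over Irf4, Batf3 over Irf4 and Itgax over Zbtb46, with PERK KO library 4 highest in each.

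Within the groups, the members varied together to different degrees. After the group mean of log2 CPM was subtracted, Pearson's r over the 8 libraries was 0.91 between Itgax and Irf8, 0.91 between Irf8 and Xcr1, 0.83 between Itgax and Batf3 and 0.75 between Itgax and Xcr1. It was 0.03 between Itgax and Irf4, -0.34 between Irf8 and Irf4 and -0.56 between Irf4 and Xcr1. These values describe 8 libraries, and the genes of a library share its depth and its mix of cells. Among 11465 genes searched, the highest r was with Ggta1 (0.997) for Itgax, Fgd3 (0.987) for Irf8, Lrrfip1 (0.975) for Irf4, Dbndd2 (0.978) for Batf3, Fzd2 (0.980) for Zbtb46 and Fos (0.992) for Xcr1. The next were Zfp444 (0.986) and Tns1 (0.983) for Itgax, Id3 (0.985) and Nfam1 (0.984) for Irf8, and Lrch1 (0.963) and Dtnbp1 (0.951) for Irf4. For Batf3 they were Zfp521 (0.951) and Lims2 (0.942), for Zbtb46 Esam (0.978) and Fbxo44 (0.977), and for Xcr1 Zbp1 (0.989) and Itpr2 (0.975). All of these are the highest of 11465 values over only 8 libraries. A high r follows in part from such a search, and none was tested.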

How the data were processed

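RNA was measured by sequencing in 8 libraries. Per the labels' protocols, strand-specific libraries were made from 100 ng of RNA each. The submitters' processing notes name bcl2fastq, STAR 2.5.3a, HTSeq 0.6.1, DESeq2 1.30.1 and mm10; counting settings, strand included, are not given in the sources used here. The raw table the authors deposited holds whole-number read counts per gene, and their normalized values were not used. All 55450 identifiers matched GENCODE M21. Genes were filtered with filterByExpr (16662 kept), scaled with TMM factors (0.863 to 1.03) and tested with edgeR 4.0.16 (robust quasi-likelihood fit, R 4.3.3, Benjamini-Hochberg adjusted p under 0.05 over all genes tested); the coefficient of biological variation was 46.3%. A second fit used summed pan-leukocyte counts as library sizes. Log2 CPM used a prior count of 2.

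The members, lists, ratios and naming rule were chosen with earlier results of these data known. All members are named, and from each dendritic cell list the 4 called genes with the smallest p and the 2 most abundant genes not called; 1 gene that this rule takes is not reported here. Further cell type lists were checked for the markers of other cells that the beads could carry over, of which the text gives sums and counts. In the neutrophil list 1 of 2 tested genes rose. The fit was run on simulated data with the PERK KO design and 200 genes drawn to change, from those above a minimum average level. It recovered 63 of 100 tested genes changed 2-fold and 78 of 98 changed 4-fold, and called 5 of 15530 unchanged genes. No simulated library was set apart as PERK KO library 4 was, so these rates need not hold for the members. Alternatives used DESeq2 1.42.0, limma 3.58.1 (voom), other scalings and filters, a replicate block and the removal of each library. Further software was the R package data.table, version 1.17.8, and, under Python 3.11.15, scipy 1.17.1, pandas 2.3.3, matplotlib 3.10.9 and numpy 2.4.6. Promoter sequences came from RefSeq. Intervals set by a count of 0 cover counting error only.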

Additional observations from a re-analysis of the deposited data

Results flagged for a closer look

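Of 64 groups of 4 libraries examined (members, context sums and cell type sums), 12 (18.8%) had 1 library set apart from the other 3 by most of the group's range. How often chance gives this for CPM values was not tested, and the sums share libraries. PERK KO library 4 was high for Clec9a at 23.9 CPM, Xcr1 at 48.6 CPM and Siglech at 1.61 CPM. It was also high in the summed pDC list at 512 CPM, the pan-leukocyte list at 1320 CPM, the T cell list at 29.2 CPM and the NK cell list at 15.5 CPM. Scramble library 4 was low for Itgax at 0.542 CPM and in the summed lists of mature dendritic cells at 148 CPM, monocytes and macrophages at 65.6 CPM and endothelial cells at 41.5 CPM. Scramble library 2 was the only one of its group with Siglech counts, at 0.253 CPM. What sets these libraries apart was not tested.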

How the results depend on the processing

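Against 5 members called higher, there were 3 with limma-voom, 3 with no filter on low counts and 2 to 6 when 1 library was left out. DESeq2 and library totals alone each gave 4, and DESeq2 gave Clec9a no adjusted p. Itgax was called under all 18 alternatives. Zbtb46 was called without PERK KO library 1 only. The scalings to all transcripts moved the median of all genes by under 0.1.

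Per pan-leukocyte count, 4 members were higher and 1 lower, also when any 1 library was left out. Scaling to the mean log2 CPM of the same genes gave 2 higher and 2 lower, to Ptprc alone 0 and 2 (the same at an unadjusted edgeR p under 0.05), to monocyte and macrophage genes 2 and 1, and to the list without Arhgap30 0 and 2. These shifted the median of all genes from -1.52 to -2.47, -2.58, -2.16 and -2.74. Batf3 changed sign, from 0.05 to -0.78, -0.92, -0.47 and -1.04. Leaving out 1 library gave it -0.095 to 0.31, with -0.064, -0.060 and -0.061 without scramble library 3, scramble library 4 and PERK KO library 2.

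With a replicate block, 1 member was called higher per all transcripts (4 at an unadjusted p), and 0 higher and 0 lower per pan-leukocyte count (3 and 0 at an unadjusted edgeR p). The block used the shared numbers 2, 3 and 4, and no label says that these pair the tumours. Correlations of same-numbered deviations were -0.009, 0.098 and -0.20, too few to decide whether they do. Not every library correlated best with its own number.

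Of 612 values for 34 other named genes, 569 kept direction and side of the threshold, 31 lost a call, 7 gained one and 5 changed sign. The last were Cxcl10 (main value 0.12; -0.068 to 0.22 with 1 library left out; -0.14 without PERK KO library 4 and scramble library 4), Relb (0.42; -0.063 to 0.71; -0.13) and Klf4 (0.51; -0.044 without both). The 7 ratios between members kept their sign with the other prior counts and with 1 library left out; none passed the threshold to begin with, and with so few possible assignments their p-values say nothing about stability. Depth limits Siglech, Clec9a and Cd209a, which had 3 counts or fewer in 6, 2 and 2 of the 8 libraries. The causes of these shifts were not tested, and alternatives that leave out 2 libraries or Arhgap30 were chosen after seeing the data.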
